A study of Homo sapiens with 4 samples.

Results

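MHC class I molecules display peptides from inside a cell, and the genes described here encode the parts that make, carry and hold those peptides, together with the regulator of the set. They were picked by name and role, with earlier results of these data known, and found through the platform annotation of the arrays. The rule itself uses no measured value and names 9 genes: the heavy chain genes HLA-B, HLA-E and HLA-F, the light chain gene B2M, the peptide transporter genes TAP1 and TAP2, the immunoproteasome genes PSMB8 and PSMB9, and the regulator NLRC5. Of these, 6 had at least 1 transcript cluster of their own, a set of probes summarised as 1 value, out of 18417 genes with one. HLA-B and HLA-F were measured only on clusters annotated to 2 class I genes at once, and HLA-E was not analysed here. In all, 20 of the 21214 named clusters carried a member's symbol. Many repeat 1 gene: PSMB8, PSMB9 and TAP1 each had 3 clusters with identical values, so that 14 of the 20 held distinct values, and every gene is counted once below.

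RNA came from cultures of OVCAR-3, a human ovarian carcinoma line long established in culture. In the labels, 2 arrays are from cells overexpressing human H1.3, a linker histone that binds DNA between nucleosomes, and 2 from cells transfected with vectors lacking H1.3. All 4 arrays share the cell line and its medium, and the replicates are called biological. Nothing in the labels names the promoter of the vector, or says whether a group is 1 clone or a pool of transfected cells. Whether replicates were separate cultures is likewise not given, so p-values cover only the spread from array to array, which may be technical. Each array averages a culture, so fewer cells carrying a transcript and less of it per cell cannot be told apart.

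In every nucleated cell type, the proteasome cuts proteins into peptides, the TAP1 and TAP2 proteins pump them into the endoplasmic reticulum, and there a class I heavy chain paired with beta-2 microglobulin binds them. Interferon signalling is known to switch on most of these genes, and to exchange catalytic subunits of the proteasome for inducible ones. NLRC5 is known to bind class I promoters through the factors that sit on their X and Y boxes. In carcinoma cells, low class I display is a known way of escaping T cells.

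Promoter sequences from RefSeq (build GRCh38.p14) were found for 7 of the 9 genes, HLA-E and NLRC5 being the others. The 250 bases before the annotated start are shown for 6 of these genes, to mark matches to binding motifs through which class I pathway genes are known to be regulated. No single one of these motifs matched in every stretch shown. They are reference sequences, not those of OVCAR-3. Capitals mark matches on either strand to the interferon-stimulated response element (GAAA, any 2 bases, GAAA), the gamma-activated site (TTC, any 3 bases, GAA), NF-kB (GGG, any 2 bases, TT, any base, CC), the X2 box core (TGACG) and the CCAAT box (CCAAT), and neighbouring matches can run into each other. Of 2 annotated TAP1 starts, the one facing PSMB9 is shown.
TAP1, chr6:32853705-32853954, minus strand: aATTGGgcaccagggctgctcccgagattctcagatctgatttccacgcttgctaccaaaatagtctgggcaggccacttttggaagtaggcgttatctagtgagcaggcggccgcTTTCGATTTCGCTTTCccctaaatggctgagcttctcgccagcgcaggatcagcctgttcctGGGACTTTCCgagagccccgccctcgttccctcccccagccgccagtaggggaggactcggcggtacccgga
PSMB9, chr6:32853942-32854191, plus strand: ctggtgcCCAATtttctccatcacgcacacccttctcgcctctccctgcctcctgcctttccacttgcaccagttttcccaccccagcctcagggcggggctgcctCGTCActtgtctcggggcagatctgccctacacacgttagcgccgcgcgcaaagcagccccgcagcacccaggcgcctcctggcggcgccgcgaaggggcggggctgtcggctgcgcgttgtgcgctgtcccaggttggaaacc
TAP2, chr6:32838740-32838989, minus strand: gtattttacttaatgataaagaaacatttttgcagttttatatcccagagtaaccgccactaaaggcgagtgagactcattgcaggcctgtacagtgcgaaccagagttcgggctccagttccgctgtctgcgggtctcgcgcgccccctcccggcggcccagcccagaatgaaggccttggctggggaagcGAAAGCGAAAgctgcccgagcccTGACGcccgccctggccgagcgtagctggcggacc
B2M, chr15:44711267-44711516, plus strand: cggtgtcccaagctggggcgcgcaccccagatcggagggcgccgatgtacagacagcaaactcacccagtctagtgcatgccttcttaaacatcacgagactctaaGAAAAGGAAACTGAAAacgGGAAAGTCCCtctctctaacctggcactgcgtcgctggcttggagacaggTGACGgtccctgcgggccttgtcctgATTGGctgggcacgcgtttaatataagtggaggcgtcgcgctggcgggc
HLA-B, chr6:31357180-31357429, minus strand: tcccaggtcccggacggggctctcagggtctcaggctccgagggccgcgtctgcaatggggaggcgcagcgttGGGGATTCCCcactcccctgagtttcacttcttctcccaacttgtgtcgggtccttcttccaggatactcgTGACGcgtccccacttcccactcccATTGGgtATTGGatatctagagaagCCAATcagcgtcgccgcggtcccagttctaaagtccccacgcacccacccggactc
HLA-F, chr6:29723184-29723433, plus strand: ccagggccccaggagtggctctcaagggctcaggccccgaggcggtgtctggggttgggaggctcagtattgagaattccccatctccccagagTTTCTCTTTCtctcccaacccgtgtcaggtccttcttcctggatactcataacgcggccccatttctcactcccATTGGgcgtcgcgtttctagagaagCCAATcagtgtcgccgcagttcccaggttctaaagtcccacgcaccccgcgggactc
TAP1 and PSMB9 are read in opposite directions from start sites with 487 bases between them, so that their windows overlap by 13 bases. The TAP1 window held 2 overlapping response element matches and 1 NF-kB match, and so did that of B2M. TAP2 and HLA-F held 1 response element match each, while the PSMB9 and HLA-B windows held none. NF-kB matched once in HLA-B, which also held 1 X2 core and 3 CCAAT matches. Of PSMB8's 2 annotated starts, 1 had a response element match that begins 4 bases before the start and a gamma-activated site match, and the other had an X2 core match only. Of 34796 distinct promoter windows of 300 bases, 3.57% held a response element match, 7.67% a gamma-activated site, 5.67% NF-kB, 24.5% an X2 core and 34.6% a CCAAT match. These are matches of letters, not shown binding sites.

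Expression of the class I pathway genes was compared between the arrays labelled H1.3 and the vector-only arrays on the deposited log2 scale, as the difference of the group means with its standard error from limma. The inducible proteasome gene PSMB9 stood 1.10 ± 0.17 (SE) higher, TAP1 0.77 ± 0.22 and TAP2 0.49 ± 0.12. PSMB8 and NLRC5 stood 0.34 ± 0.15 and 0.23 ± 0.12 higher, while B2M differed by -0.18 ± 0.17 (n = 2 arrays a group throughout). In 5 of the 6 genes both arrays labelled H1.3 lay above both vector-only arrays, as they did in 21.6% of all genes. None of the 6 passed an adjusted limma p of 0.05, which 0.494% of all genes did (0.217% higher and 0.277% lower), and 3 of them had an unadjusted p under 0.05, as had 11.8% of all genes. None of the 6 had both arrays lower, as 19.3% of all genes had. The median difference of the 6 genes was 0.42, against 0.02 over all 18417 genes, and 5 of the 6 were above 0, as were 53.2% of all genes.

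Of the 6 genes, 4 lie beside each other on chromosome 6 in the RefSeq order (TAP2, PSMB8, TAP1 and PSMB9), B2M is on chromosome 15 and NLRC5 on chromosome 16. The arrays were even in scale, with medians from 6.21 to 6.27. The gene for H1.3 itself, H1-3, measured 7.47 and 7.69 in the arrays labelled H1.3 and 8.65 and 7.88 in the vector-only arrays. It was thus not higher where the label says so, with a difference of -0.69 ± 0.24 (SE) and an adjusted p of 0.320. Whether its probes lie in the transfected sequence was not examined here. Of 14 carcinoma markers, all but ESR1 (an oestrogen receptor) lay above the median level of named clusters, 6.84, on every array; ESR1, named after its values were seen, measured 4.68 to 5.04. EPCAM, an epithelial adhesion molecule, measured 11.16 and 11.29 in the arrays labelled H1.3 and 11.84 and 11.74 in the vector-only arrays. None of the 14 passed. EPCAM and MSLN (mesothelin) were lower at an unadjusted p under 0.05, which 11.8% of all genes had in either direction. The mean level of the 14 was 10.23 and 10.26 in the arrays labelled H1.3 and 10.42 and 10.30 in the vector-only arrays.

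PSMB9 encodes the inducible counterpart of a catalytic subunit of the 20S proteasome, called beta 1i or LMP2. It measured 7.67 and 8.10 in the arrays labelled H1.3 and 6.87 and 6.70 in the vector-only arrays. The groups did not overlap, and the gap between them exceeded the gap of 0.43 between the arrays labelled H1.3 and of 0.17 between the vector-only arrays. The difference corresponds to 2.14-fold, with a 95% interval of 0.71 to 1.49 on the log2 scale. Its adjusted p was 0.0509, just outside the threshold. By size of the difference PSMB9 ranked 44 of the 18417 genes, and by p it ranked 93. Leaving out each array gave 0.89 to 1.32, always above 0.

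PSMB8 encodes the inducible subunit beta 5i, or LMP7. Its log2 levels were 8.54 and 8.81 in the arrays labelled H1.3 and 8.46 and 8.21 in the vector-only arrays. The groups did not overlap, but they lay closer together than the arrays within either group. The difference of 0.34 had a 95% interval from -0.01 to 0.69 and an adjusted p of 0.447. With H1.3 replicate 2 left out it was 0.21, with vector-only replicate 2 left out 0.22, and 0.48 at most when another array was left out.

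**Figure D1:**
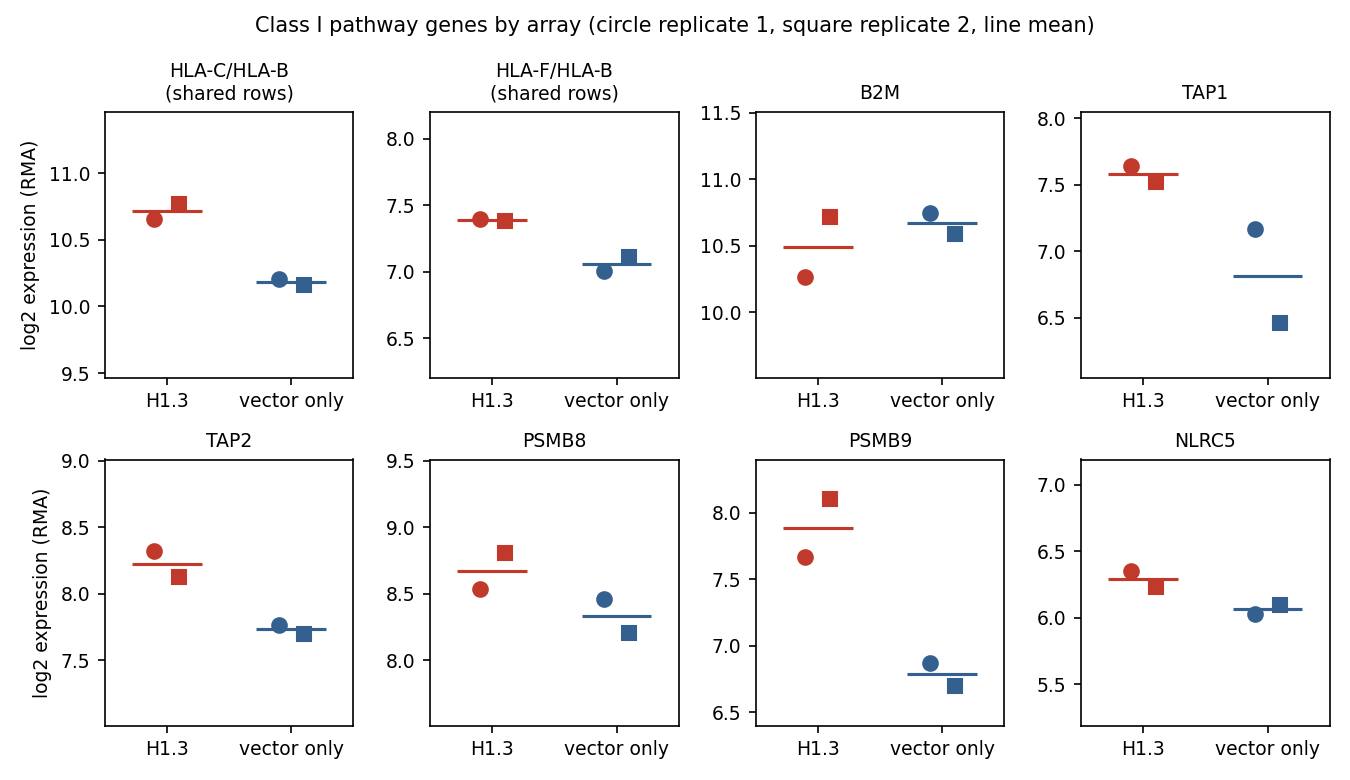
Log2 expression of 6 genes and of 2 sets of shared clusters on each array. The vertical axis is the deposited RMA log2 value, each panel spans 2 log2 units, circles are replicate 1, squares replicate 2 and lines the group means; the arrays labelled H1.3 are on the left. PSMB9 is 7.67 and 8.10 against 6.87 and 6.70, and B2M is the panel in which the groups overlap.

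Both subunits replace constitutive ones that are made in all cells, so their change was set beside that of the subunits they replace. PSMB6, replaced by PSMB9, measured 10.13 and 10.14 in the arrays labelled H1.3 and 10.29 and 10.25 in the vector-only arrays. PSMB5, replaced by PSMB8, measured 9.08 and 9.33 in the arrays labelled H1.3 and 9.34 and 9.46 in the vector-only arrays. PSMB9 relative to PSMB6 was thus 1.02 and 1.44 above the vector-only mean in the arrays labelled H1.3, a change of 1.24. PSMB8 relative to PSMB5 was 0.53 and 0.55 above it, a change of 0.54, with the vector-only arrays at 0.185 and -0.185 around it. The third inducible subunit, PSMB10, itself differed by 0.285 ± 0.16 (SE), against 0.34 for PSMB8, and its groups overlapped. Relative to PSMB7, the subunit it replaces, it changed by 0.17. PSMB7 differed by 0.12 and PSMB5 by -0.20, so the ratios hold the changes of both partners. These 3 ratios were formed after the values were seen and were not tested. They describe paired transcripts on these arrays, not the makeup of the proteasome.

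**Figure D2:**
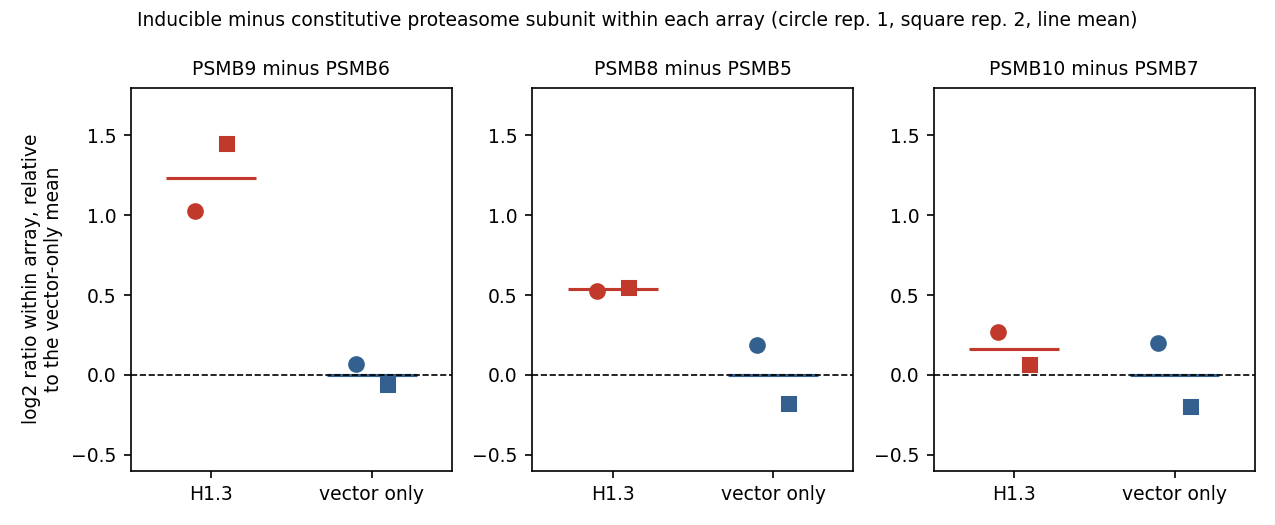
Log2 ratio of each inducible proteasome subunit to the constitutive subunit it replaces, within each array and relative to the vector-only mean (dashed line at 0). Circles are replicate 1, squares replicate 2 and lines the group means. The change is 1.24 for PSMB9 to PSMB6, 0.54 for PSMB8 to PSMB5 and 0.17 for PSMB10 to PSMB7.

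The wider proteasome was read from 2 lists. Of 14 genes of the constitutive 20S core, 0 passed in either direction by limma, and 0 had an unadjusted p under 0.05. Their differences ran from -0.39 to 0.12 with a median of -0.11, and 9 of the 14 were negative. The 2 with the smallest p were PSMA2, an outer-ring subunit, at -0.39 ± 0.20 and PSMB5 at -0.20 ± 0.13 (SE). When H1.3 replicate 1 was left out, they differed by -0.09 and -0.07, and the median of the core was -0.01; it was -0.04 when vector-only replicate 1 was left out. Among 6 genes for partners of the immunoproteasome and for proteasome activators, 0 passed and 5 were positive, with a median of 0.17. PSME2, a subunit of the interferon-inducible activator PA28, measured 9.29 and 9.24 in the arrays labelled H1.3 and 8.87 and 8.80 in the vector-only arrays. It stood 0.43 ± 0.11 (SE) higher, at an adjusted p of 0.182. PSME3, which forms the nuclear activator PA28 gamma, differed by 0.22 with an adjusted p of 0.551.

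TAP1 and TAP2 encode the partner chains of the transporter that carries peptides into the endoplasmic reticulum. TAP1 measured 7.64 and 7.52 in the arrays labelled H1.3 and 7.17 and 6.46 in the vector-only arrays. All values of the arrays labelled H1.3 were higher, but the vector-only arrays were 0.71 apart, nearly as much as the difference of 0.77. The adjusted p was 0.214, and the 95% interval ran from 0.25 to 1.28. The size rested on vector-only replicate 2, the lowest array: the difference was 0.41 without it and 1.12 without vector-only replicate 1.

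For TAP2 the arrays agreed more closely. Its cluster of highest mean measured 8.32 and 8.13 in the arrays labelled H1.3 and 7.77 and 7.70 in the vector-only arrays, with an adjusted p of 0.163. The 3 clusters of TAP2 held slightly different values and gave differences of 0.49 to 0.51. Leaving out each array left 0.40 to 0.59. By size of the difference TAP1 ranked 140 and TAP2 416 of 18417 genes. Their 95% intervals overlapped widely, and whether the 2 genes differ from each other was not tested.

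The class I heavy chains were read from shared clusters. The 3 clusters annotated to both HLA-C and HLA-B, classical chains that present peptides to T cells, held distinct values. The one of highest mean measured 10.66 and 10.77 in the arrays labelled H1.3 and 10.21 and 10.16 in the vector-only arrays. These groups lay apart by more than the gap within either, and the difference was 0.53 ± 0.12 (SE), with an adjusted p of 0.121. Over the 3 clusters the difference ran from 0.53 to 0.58 and the adjusted p from 0.108 to 0.121.

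The other 3 shared clusters were annotated to HLA-F, a non-classical chain, and to HLA-B. Of these, the one of highest mean measured 7.40 and 7.38 in the arrays labelled H1.3 and 7.01 and 7.11 in the vector-only arrays. All values of the arrays labelled H1.3 were again higher, by 0.33 ± 0.12 (SE), and the adjusted p was 0.320. The 3 clusters gave 0.29 to 0.34. HLA genes resemble each other in sequence, so how much of either signal belongs to HLA-B, HLA-C or HLA-F cannot be told apart on these clusters. Probe positions were not used here.

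B2M encodes beta-2 microglobulin, the invariant light chain that every class I heavy chain needs to reach the surface. It measured 10.27 and 10.72 in the arrays labelled H1.3 and 10.75 and 10.59 in the vector-only arrays. The groups overlapped, and the difference of -0.18 had a 95% interval from -0.57 to 0.22 and an adjusted p of 0.777. Its sign depended on 1 array: without H1.3 replicate 1 the difference was 0.05, and without H1.3 replicate 2 it was -0.40. The interval reaches to either side of 0, so neither a higher nor a lower level was resolved. Among the 6 genes, only B2M had a negative difference.

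NLRC5 encodes the transactivator of class I genes. It measured 6.35 and 6.23 in the arrays labelled H1.3 and 6.03 and 6.10 in the vector-only arrays. These values lie below 6.84, the median level of the named clusters. The groups did not overlap, but the difference of 0.23 had a 95% interval from -0.05 to 0.50 and an adjusted p of 0.545. Leaving out each array gave 0.17 to 0.29.

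**Figure D3:**
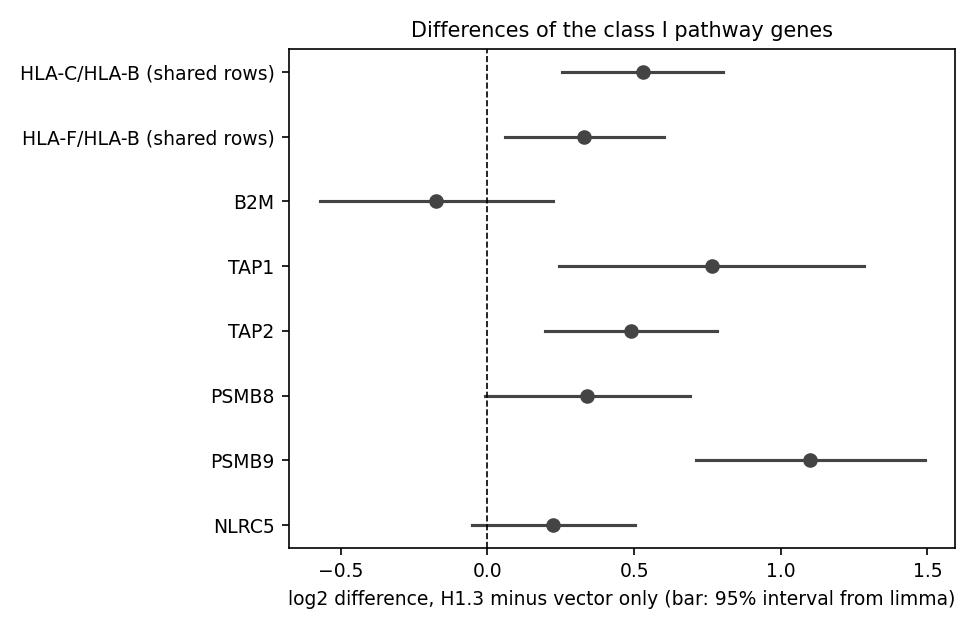
Log2 difference, H1.3 minus vector only, with its 95% interval from limma (n = 2 arrays a group), for 6 genes and 2 sets of shared clusters; the dashed line is 0. PSMB9 is highest at 1.10, B2M is the one below 0, and the intervals of B2M, PSMB8 and NLRC5 include 0.

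Regulators of the set were examined as a list of transcription factors and interferon signalling genes. Of 29 listed, 26 had a cluster of their own, and the others were not analysed here. None of the 26 passed by limma. At an unadjusted p under 0.05, 3 were higher and 1 lower, and 11.8% of all genes had such a p in either direction. The median difference was 0.06. Leaving out each array gave a median of 0.03 to 0.11, lowest without H1.3 replicate 1 and highest without vector-only replicate 2. IRF2, an interferon regulatory factor, measured 8.56 and 8.37 in the arrays labelled H1.3 and 7.96 and 7.97 in the vector-only arrays, with an adjusted p of 0.152. IRF9, the DNA-binding part of the factor that answers type I interferon, measured 7.92 and 8.48 in the arrays labelled H1.3 and 7.59 and 7.35 in the vector-only arrays, with an adjusted p of 0.184. In both genes the groups did not overlap. The others with an unadjusted p under 0.05, named after their values were seen, were IRF1, an interferon-induced activator, at 0.74 ± 0.20 (SE) and IRF8, a factor best known from blood cells, at -0.53 ± 0.15.

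The assembly steps gave a mixed picture. Of 12 listed genes for heavy chains, chaperones and peptide trimming, 6 had a cluster of their own. By limma 0 passed, and 2 had an unadjusted p under 0.05, as had 11.8% of all genes. Both arrays labelled H1.3 were higher in 3 of the 6 and lower in 1, against 21.6% and 19.3% of all genes. TAPBPL, which encodes the peptide editor TAPBPR, measured 7.88 and 7.31 in the arrays labelled H1.3 and 6.87 and 6.62 in the vector-only arrays. TAPBP, or tapasin, which bridges class I molecules to the transporter, measured 10.45 and 10.36 in the arrays labelled H1.3 against a vector-only mean of 10.04 ± 0.05 (SD, n = 2). The groups did not overlap in either gene, and the adjusted p was 0.137 for TAPBPL and 0.257 for TAPBP. The chaperone and trimming genes CALR, CANX, ERAP1 and ERAP2 differed by -0.12 to 0.16. The list's median was 0.14; it was 0.04 when vector-only replicate 1 was left out and 0.25 when vector-only replicate 2 was.

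Among 18 genes for class I-like molecules, 0 passed by limma, 14 were positive, and the median was 0.13. That median was 0.03 when vector-only replicate 1 was left out and 0.22 when vector-only replicate 2 was. MICA and MICB, stress-induced ligands of the NKG2D receptor of natural killer cells, lie in the same region of chromosome 6 as the HLA genes. MICB measured 7.64 and 7.92 in the arrays labelled H1.3 and 6.67 and 7.03 in the vector-only arrays, so that it stood 0.93 ± 0.16 (SE) higher (adjusted p = 0.0798). MICA measured 7.25 and 7.43 in the arrays labelled H1.3 and 6.59 and 6.75 in the vector-only arrays, so that it stood 0.67 ± 0.13 (SE) higher (adjusted p = 0.0925). Both genes were thus separated between the groups without passing the test. The other class I-like genes with an unadjusted p under 0.05 came to 1, RAET1G, another NKG2D ligand, at 0.37, named after its value was seen. Of all genes, 11.8% had such a p. With clusters of mean below 6.84, the median level of named clusters, removed, 4 of these genes were left, with a median of 0.52. MICA and RAET1G were among them, with vector-only means of 6.67 and 6.745. They cleared the filter only through the arrays labelled H1.3, so that median is partly set by the filter.

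MHC class II genes, which lie beside the transporter genes and normally serve antigen-presenting cells, are shown for comparison. Of 9 measured, 6 were positive and 2 negative, with a median of 0.235. By limma 2 passed, both higher, against 0.217% of all genes. HLA-DPA1 and HLA-DPB1 encode the paired chains of HLA-DP. They stood 1.64 and 1.00 higher in the arrays labelled H1.3, with an adjusted p of 0.0440 each. In the vector-only arrays HLA-DPA1 (5.04 and 4.90) and HLA-DPB1 (5.21 and 5.49) both lay below 6.84, the median level of named clusters. When any 1 of the 4 arrays was left out, HLA-DPA1 stood 1.28 to 1.99 higher and HLA-DPB1 0.855 to 1.135. With all 4 arrays, both missed the threshold without moderation, with unnamed clusters added, and with the replicate block (adjusted p 0.164 for HLA-DPA1 and 0.182 for HLA-DPB1). Of all 18417 genes, 7, 3 and 0 passed in these settings, so missing it there is not particular to the 2 genes. Both also missed it with array medians equalised (0.0507 and 0.0515), where 47 genes passed. HLA-DPA1 missed it after repeated quantile normalization (0.0506) and HLA-DPB1 with its clusters averaged (0.0747). Markers of leukocytes, which carry abundant class I and, in some types, class II molecules, were examined as well. By limma 0 of 17 passed and 1 had an unadjusted p under 0.05, as had 11.8% of all genes. Of the 17, 12 were positive and 5 negative, with a median difference of 0.05. That median was 0.01 when H1.3 replicate 1 was left out, 0.17 when H1.3 replicate 2 was, and 0.02 and 0.16 when vector-only replicates 1 and 2 were. The mean level of the 17 was 5.29 and 5.12 in the arrays labelled H1.3 and 5.11 and 5.19 in the vector-only arrays. PTPRC, the pan-leukocyte antigen CD45, measured 3.38 and 3.40 in the arrays labelled H1.3 and 3.13 and 3.19 in the vector-only arrays. FCER1G, a signalling chain of leukocyte Fc receptors, measured 4.45 and 4.51 in the arrays labelled H1.3 and 4.15 and 4.19 in the vector-only arrays, with an adjusted p of 0.350. The part of such cells in the class I values was not tested. Fibroblast and endothelial markers had medians of 0.05 over 10 genes and 0.02 over 9 genes, with 0 passing in either list and none with an unadjusted p under 0.05; both medians were below 0 when H1.3 replicate 1 was left out (-0.02 and -0.10), and the endothelial one was -0.06 when vector-only replicate 1 was.

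**Figure D4:**
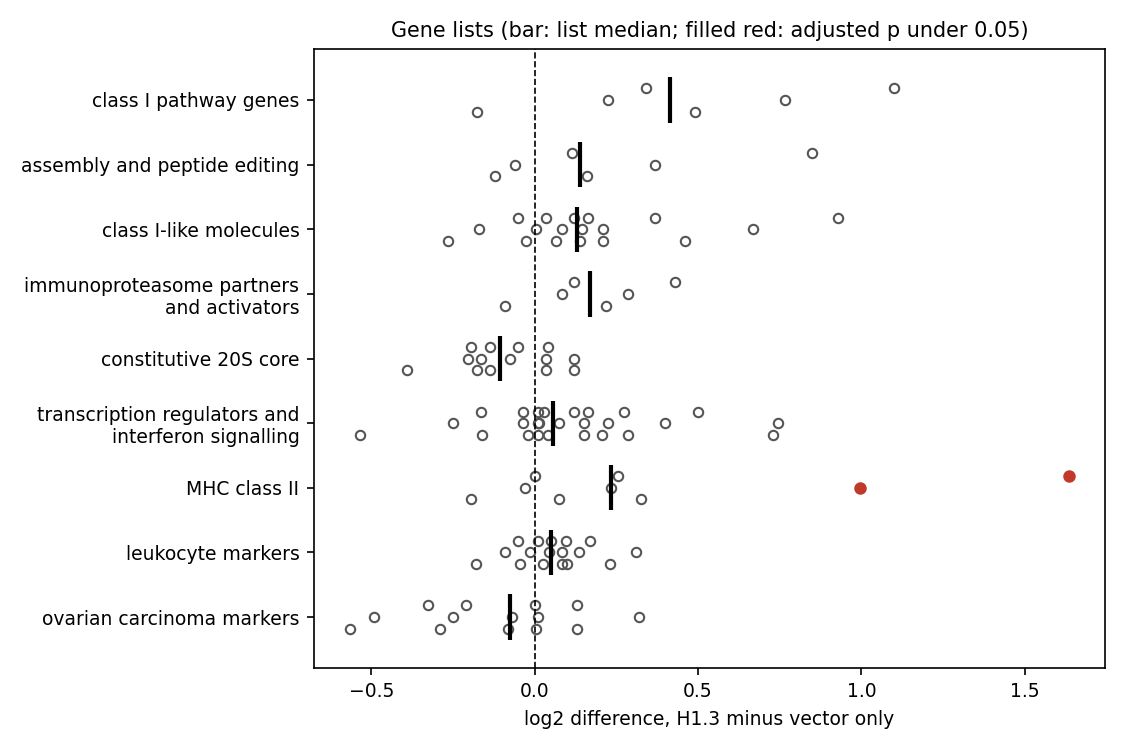
Log2 difference, H1.3 minus vector only, of each measured gene in 9 lists. Each circle is 1 gene, black bars are list medians, and filled red circles passed an adjusted limma p of 0.05. The class I pathway genes have a median of 0.42, the constitutive 20S core one of -0.11, and HLA-DPA1 and HLA-DPB1 are the 2 filled circles.

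The neighbours of the members were read in the RefSeq order, a comparison added after the values were seen. On chromosome 6, 135 measured genes other than the members lie from TRIM27 to KIFC1, a stretch that holds the whole MHC. Their median difference was 0.06, and both arrays labelled H1.3 were higher in 28.1% of them, against 21.6% of all genes. In this stretch 3 genes passed an adjusted limma p of 0.05 as higher and 0 as lower: HLA-DPA1, HLA-DPB1 and the complement gene CFB. Of all genes, 0.217% passed as higher and 0.277% as lower. Without the genes of any list used here and all others with symbols beginning with HLA- or MIC, 121 were left. Their median was 0.05, and 23.1% were higher in both arrays.

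Closer in, the 10 measured genes nearest to TAP2, PSMB8, TAP1 and PSMB9, 5 on each side, had a median difference of 0.11. Of these, 6 were higher and 1 lower in both arrays labelled H1.3, against 21.6% and 19.3% of all genes, and 1 passed, HLA-DPA1. All but BTNL2 and BRD2 are class II genes already counted in the class II list, so these values are not separate from it. BTNL2 differed by 0.13 and BRD2 by 0.085. The 10 genes nearest to B2M had a median of 0.04, and the 10 nearest to NLRC5 one of -0.01. Around B2M 4 were higher and 3 lower in both arrays, around NLRC5 1 was higher and 3 lower, and 0 passed in either neighbourhood. The difference between these neighbourhoods was not tested.

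The profile of the 6 genes over the arrays was also compared with that of 9302 other genes at or above the median level. For each gene the 4 values were centred on their own mean, and its Euclidean distance from the mean profile of the 6 genes was taken. The 5 nearest were GABBR1, DTX3L, IDI1, GPR137B and ERG28, at distances from 0.048 to 0.064. The members themselves lay farther out, from 0.16 for PSMB8 to 0.68 for PSMB9 and B2M. GABBR1, a GABA-B receptor subunit gene, lies in the stretch from TRIM27 to KIFC1, and DTX3L encodes an interferon-inducible ubiquitin ligase. A place or role is named here for GABBR1 and DTX3L only, not for IDI1, GPR137B and ERG28. No shared theme of the 5 can be read from it. GABBR1 measured 7.05 and 7.12 in the arrays labelled H1.3 and 6.75 and 6.49 in the vector-only arrays, with an adjusted p of 0.210. DTX3L measured 10.58 and 10.77 in the arrays labelled H1.3 and 10.35 and 10.13 in the vector-only arrays, with an adjusted p of 0.254. IDI1 (at the same distance as DTX3L, 0.054), GPR137B and ERG28 stood 0.48, 0.45 and 0.50 higher. The 5 genes were taken by distance alone, and whether they share a role or place was not tested.

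**Figure D5:**
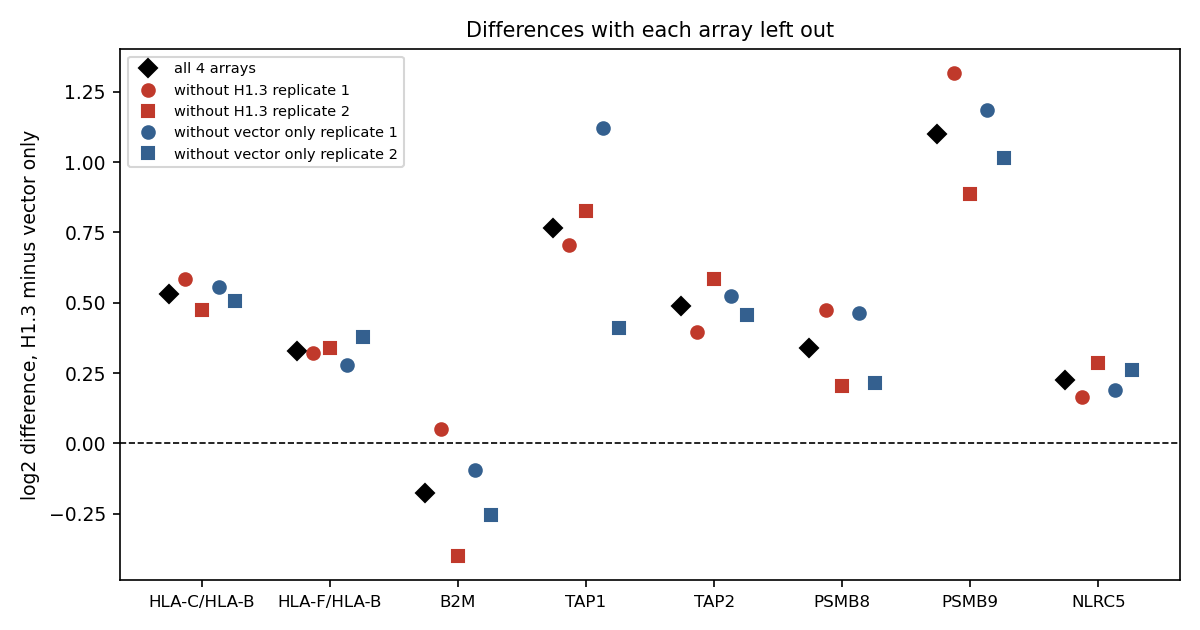
Log2 difference, H1.3 minus vector only, of 6 genes and 2 sets of shared clusters with all 4 arrays (black diamonds) and with each array left out (red: an array labelled H1.3 left out; blue: a vector-only array left out; circles replicate 1, squares replicate 2). TAP1 runs from 0.41 to 1.12, and B2M is the only one to cross 0, at 0.05 without H1.3 replicate 1.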

How the data were processed

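Total RNA from OVCAR-3 cells was measured on 4 one-colour Affymetrix arrays. The log2 values of 33297 transcript clusters are those the authors deposited; per the submitters' processing notes, RMA and Affymetrix Expression Console were used, versions not stated. In general, RMA corrects background, equalises array distributions and summarises probes. Single probes, background and saturation were not examined.

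Symbols came from the platform annotation, updated by gene identifier to RefSeq (GRCh38.p14): 19460 clusters had 1 symbol, 1754 several and 12083 none. The identifier was found for 19429 of those with 1 symbol. All 21214 named clusters were fitted with limma 3.58.1 in R 4.3.3 (lmFit, eBayes, two-sided, H1.3 minus vector only, no covariate, 2 residual and 5.16 prior degrees of freedom) with Benjamini-Hochberg adjustment over all of them. The number of arrays limits the precision: the median SE was 0.13. A gene is represented by its single-symbol cluster of highest mean, and shared clusters by the one of highest mean.

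Named are all members, H1-3, and in each list up to 4 passing genes or the 2 with the smallest p; genes outside this rule are marked or were listed by position or partnership after values were seen. Members and lists were chosen with earlier results of these data known. Alternatives changed moderation, scaling, filter, clusters tested, gene summary and threshold, added the replicate number, or left out each array. The fit was tested on simulated data. Replicate differences of the groups correlated at 0.06, so the numbers were not taken as pairs. Plots used matplotlib 3.10.9 (Python 3.11.15).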

Additional observations from a re-analysis of the deposited data

How the results depend on the processing

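With 2 arrays a group, calls depended on the setting. Of the 6 genes with a cluster of their own, 0 passed in limma; 1 passed with a robust intensity trend and 1 at an adjusted p under 0.10 (PSMB9 both times), 2 at 1.5-fold or more with an unadjusted p under 0.05 (PSMB9 and TAP1), and 0 under the other settings, the leave-one-out fits included (0 to 0). The cause of these shifts was not tested; the relaxed thresholds admit more genes by construction. Over the alternatives the adjusted p of PSMB9 ran from 0.0226 to 0.803, and with repeated identical clusters tested once, a setting chosen after seeing the data, it was 0.0501. The HLA-C/HLA-B cluster passed with a robust intensity trend (adjusted p 0.0487), and its adjusted p reached 0.803 elsewhere. The median difference of the 6 genes, 0.42, ran from 0.34 to 0.50 without each array and from 0.41 to 0.44 under the other settings that kept all 6. It was 0.42 with the shared clusters added, also chosen after seeing the data. Without clusters below the median level, 6.84, NLRC5 was not tested and the median of the other 5 was 0.49. PSMB9 and TAP1, with vector-only means of 6.785 and 6.815, cleared that filter only through the arrays labelled H1.3, so that median is partly set by the filter. B2M ran from -0.40 to 0.05 with each array left out. The fibroblast marker FAP, at -0.43, ran from -1.02 to 0.17. H1-3, at -0.69, met that unadjusted 1.5-fold threshold and kept its sign, from -1.07 to -0.30 without each array. With a replicate block, 0 of the 6 genes passed, and the adjusted p of PSMB9 was 0.222 and that of TAP1 0.282. Over all clusters, 51 were higher and 56 lower in the main test; 107 and 138 with a robust intensity trend, 6 and 3 without moderation, 29 and 38 after quantile normalization was repeated, 19 and 31 with medians equalised, 6 and 19 without dim clusters, 135 and 176 at the looser adjusted threshold of 0.10, 282 and 401 at the unadjusted 1.5-fold one, 1 and 3 with unnamed clusters added, and 0 and 0 in each leave-one-out fit and with the block.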
